A study of Mus musculus with 7 samples.

Results

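The genes described here are 10 core genes of Notch signalling: the receptors Notch1 to Notch4, the ligands Jag1 and Jag2, and the target genes Hes1, Hey1, Hey2 and Heyl. They were chosen by symbol, and all 10 were found among the 15967 rows of the deposited expression table. The tissue was the sinoatrial node, the pacemaker region of the right atrium, of Sv129 mice at 3 weeks after birth. The Cre library came from mice with floxed Baf250a and the Hcn4CreERT2 driver (Baf250af/f;Hcn4CreERT2), 6 days after tamoxifen. The control library came from mice with the same floxed alleles and no Cre (Baf250af/f). Baf250a, listed as Arid1a, belongs to the BAF complex that remodels chromatin, and Hcn4CreERT2 removes floxed DNA only in cells that express Hcn4 and only once tamoxifen is given. How many mice were pooled is not in the labels, nor is it stated there whether control mice received tamoxifen. The 5 libraries of the earlier time series (a control and samples at 16, 20, 24 and 48 h) were not analysed here. There was 1 library per genotype, so the values have no replicate error and the genotypes could not be tested against each other.

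Notch receptors are membrane proteins that are cut when a Jagged or Delta ligand on a neighbouring cell binds them. The freed inner part enters the nucleus, joins the DNA-binding protein RBPJ and switches on target genes, of which the Hes and Hey genes encode repressors. The pathway directs T cell formation in the thymus, the growth and smooth muscle coat of vessels, the fate of secretory cells in airways, and the patterning of heart muscle.

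Expression is in FPKM, fragments scaled by transcript length and by library size. How library size was set is not stated. FPKM can be compared between genes because it is per length. Differences are log2 ratios of FPKM + 1, Cre over control library, and a gene counts as higher or lower where they differ at least 2-fold on that scale. The read depth behind the values is unknown. Arid1a, the floxed gene, had 12.3 FPKM in the Cre library and 34.9 FPKM in the control library, and its value includes exons outside the floxed part. In this difference, deletion cannot be told apart from the differences in cell types and sex given below. The libraries also differed in markers of other cell types. All 18 T cell and thymocyte markers, led by Rag1, Cd8b1 and Dntt, were lower in the Cre library, with summed levels of 16.9 FPKM there and 3094 FPKM in the control library. All 10 lung and airway markers, led by Scgb1a1, Scgb3a1 and Scgb3a2, were higher. Their sums were 18643 FPKM in the Cre library and 4194 FPKM in the control library. Among genes that averaged 1 FPKM or more, 6.08% were higher and 10.4% lower. Xist had 93.2 FPKM in the Cre library and 0.379 FPKM in the control library, and the Y-linked gene Ddx3y had 0.0739 FPKM in the Cre library and 43.4 FPKM in the control library, so the sex of the mice cannot be told apart from genotype. The pacemaker markers were weak, with a sum over 8 genes of 21.5 FPKM in the Cre library and 13.5 FPKM in the control library. Hcn4 itself had 0.719 FPKM in the Cre library and 0.605 FPKM in the control library. In such bulk samples, fewer cells of a type and less RNA per cell cannot be told apart.

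The receptors had nearly the same summed level in both libraries, while their order differed. Notch2, a receptor of smooth muscle, B cells and airway secretory cells, had 12.0 FPKM in the Cre library and 5.42 FPKM in the control library, and its log2 ratio of 1.02 just passed the 2-fold rule. Notch1, the receptor that commits cells to the T lineage and also acts in endothelium, had 9.83 FPKM in the Cre library and 17.2 FPKM in the control library. Its log2 ratio of -0.75 did not pass the rule. Notch2 was thus the strongest receptor in the Cre library and the third in the control library, whereas Notch1 was second in the Cre library and first in the control library.

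Notch3, known from pericytes, vascular smooth muscle and immature thymocytes, had 5.03 FPKM in the Cre library and 6.16 FPKM in the control library (log2 ratio -0.25). Notch4, an endothelial receptor, had 4.45 FPKM in the Cre library and 2.96 FPKM in the control library (log2 ratio 0.46). Neither difference passed the 2-fold rule, and Notch4 was the weakest receptor in both libraries. Relative to stroma, that is after subtracting the median log2 ratio of endothelial, mural and fibroblast markers, the ratio of Notch4 was -0.06.

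**Figure D1:**
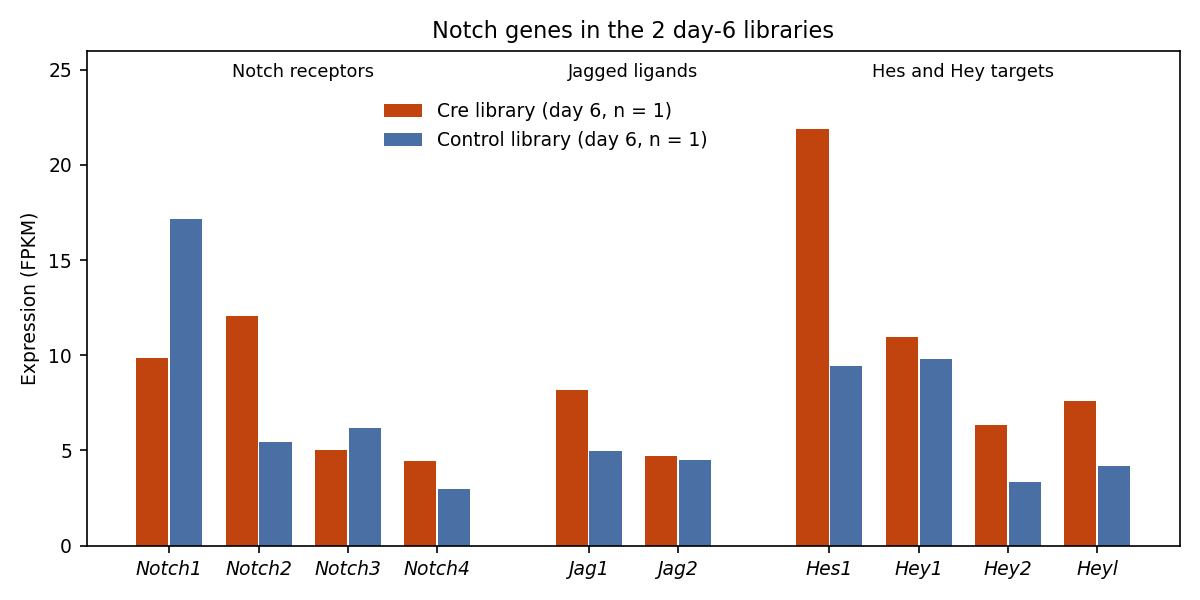
Expression in FPKM (vertical axis, linear from 0) of the 4 receptors, 2 ligands and 4 targets, with 1 bar for the Cre library and 1 for the control library of each gene. Hes1 is the highest bar of the Cre library at 21.9 FPKM, and Notch1 the highest of the control library at 17.2 FPKM.

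The 4 receptors together summed to 31.4 FPKM in the Cre library and 31.7 FPKM in the control library, a ratio of 0.988. Within that sum Notch2 took 38.4% in the Cre library and 17.1% in the control library, and Notch1 took 31.4% in the Cre library and 54.1% in the control library. Notch3 took 16.0% in the Cre library and 19.4% in the control library, and Notch4 took 14.2% in the Cre library and 9.34% in the control library. These shares do not depend on how the libraries are scaled, since each is taken within 1 library. The level of Notch2 over that of Notch1 was 1.22 in the Cre library and 0.316 in the control library. Notch1 lay on the same side as the medians of the T cell, thymic epithelium and cell cycle markers, as did 7246 of all 13408 genes. Notch2 lay on the same side as the medians of the lung and airway, heart muscle, mural, endothelial, fibroblast, pacemaker and epicardial markers, as did 45.96% of all genes. The part of these lists in either difference was not tested.

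**Figure D2:**
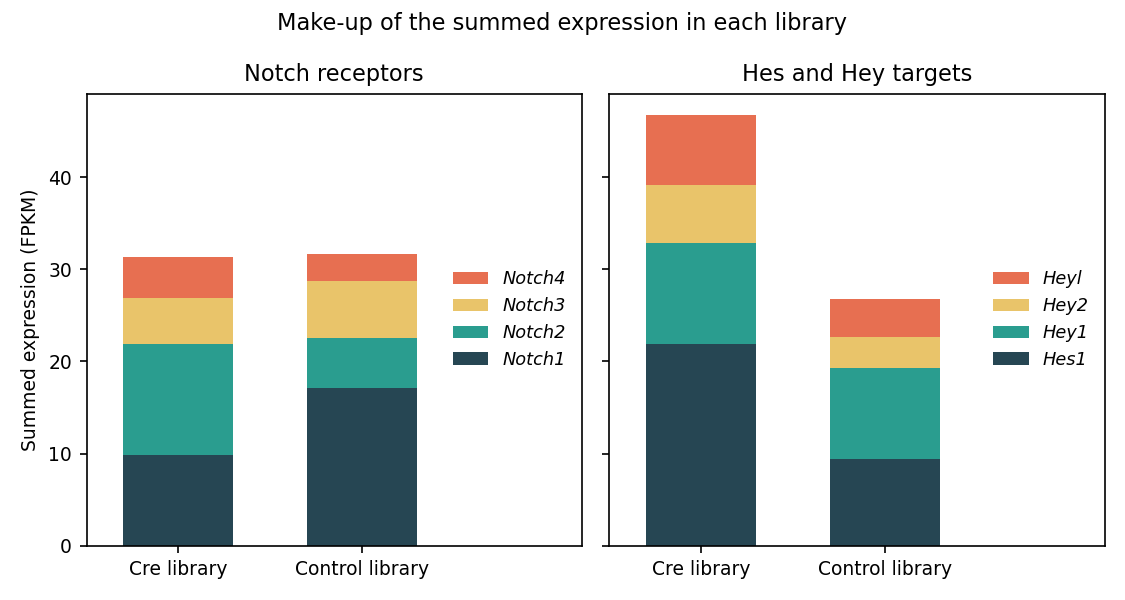
Summed FPKM (vertical axis) of the receptors, left, and of the Hes and Hey targets, right, in the Cre and control libraries, with 1 colour per gene. The receptor columns are nearly equal in height at 31.4 FPKM in the Cre library and 31.7 FPKM in the control library, with different make-up, while the target columns reach 46.8 FPKM in the Cre library and 26.8 FPKM in the control library.

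RefSeq promoter entries, read on GRCm38.p6, were found for 7 of the 10 genes, and those of Notch2 and Notch1 are shown because these receptors stood farthest apart. Each runs 5′ to 3′ from 250 bases before the start of the gene to 3 bases after it. Capitals mark 2 kinds of motif, searched on both strands: GTGGGAA, the core of the RBPJ site, and CACGTG or CACGCG, sites that Hes and Hey proteins are known to bind.
Notch2 (chr3:98013288-98013540, plus strand): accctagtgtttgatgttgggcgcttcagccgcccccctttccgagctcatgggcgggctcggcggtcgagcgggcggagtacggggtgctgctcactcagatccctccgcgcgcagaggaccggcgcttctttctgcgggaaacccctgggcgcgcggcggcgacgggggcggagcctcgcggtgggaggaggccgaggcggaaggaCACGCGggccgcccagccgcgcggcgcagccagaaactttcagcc
Notch1 (chr2:26503820-26504072, minus strand): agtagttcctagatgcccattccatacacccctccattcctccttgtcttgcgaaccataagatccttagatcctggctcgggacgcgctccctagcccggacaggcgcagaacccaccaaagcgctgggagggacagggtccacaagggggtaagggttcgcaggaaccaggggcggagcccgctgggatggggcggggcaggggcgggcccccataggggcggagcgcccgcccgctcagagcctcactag
The Notch2 window held 1 CACGCG, starting at position -42 from the gene start, and the Notch1 window held none of these motifs. Over the whole 300-base windows CACGCG also occurred in Jag1, at 2 places, and in Jag2, at 1 place. Of all 32851 promoter entries 9.27% held CACGCG, 7.15% held CACGTG and 6.38% held GTGGGAA, on either strand. The Notch2 window had 34 CpG dinucleotides and a GC content of 72.3%, against 16 and 65.6% in the Notch1 window. A match is a description of the letters and not evidence of binding.

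Neither Jagged ligand passed the 2-fold rule. Jag1, a ligand of endothelium and vascular smooth muscle whose loss causes heart and vessel defects, had 8.20 FPKM in the Cre library and 4.96 FPKM in the control library (log2 ratio 0.62). Jag2, a ligand active in the thymus and in epithelia, had 4.72 FPKM in the Cre library and 4.49 FPKM in the control library. Its log2 ratio was 0.06, and -0.46 relative to stroma. The level of Jag1 over that of Jag2 was 1.74 in the Cre library and 1.10 in the control library. The summed ligand level was 12.9 FPKM in the Cre library and 9.46 FPKM in the control library.

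All 4 target genes lay above equal expression in the Cre library, although Hey1 lay below it relative to stroma, and 1 of them passed the 2-fold rule. Of all 13408 genes 45.96% lay above equal expression. Hes1, a repressor that many tissues induce on Notch activation, had 21.9 FPKM in the Cre library and 9.46 FPKM in the control library (log2 ratio 1.13). Hey2, a repressor of arterial endothelium and ventricular muscle, had 6.32 FPKM in the Cre library and 3.33 FPKM in the control library (log2 ratio 0.76). Heyl, expressed in vascular smooth muscle and pericytes, had 7.58 FPKM in the Cre library and 4.16 FPKM in the control library (log2 ratio 0.73). Hey2 and Heyl thus had ratios close to each other and short of the rule. Hey1, a relative of Hey2 in endothelium and atrial muscle, had 10.96 FPKM in the Cre library and 9.83 FPKM in the control library. Its log2 ratio of 0.14 was the smallest of the targets, and -0.38 relative to stroma.

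Hes1 and Hey1, the strongest targets, stood apart in the Cre library and were nearly equal in the control library, at 21.9 and 10.96 FPKM in the Cre library, against 9.46 and 9.83 FPKM in the control library. Hes1 took 46.9% of the summed target level in the Cre library and 35.3% in the control library. The sum of the targets was 46.8 FPKM in the Cre library and 26.8 FPKM in the control library, a ratio of 1.75, while the receptor sum had a ratio of 0.988. The lung and airway markers, with the sums given above, and the heart muscle markers, with sums over 12 genes of 19635 FPKM in the Cre library and 12349 FPKM in the control library, lay on the same side as the targets. Nppa and Myh6, whose comparison was not completed, are not in that sum. No gene with a completed comparison was at 0 in either library, so this holds for the summed markers as for all others. The medians of the endothelial, mural, fibroblast, pacemaker and epicardial markers also lay on the same side as the targets. The part of all these lists in the difference was not tested.

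The promoter of Hey2 is shown because it is the one window among the 7 with the RBPJ motif GTGGGAA, which is in capitals in either orientation. Hes1, Hey1 and Heyl had no promoter entry, so Hey2 was the only target gene that could be searched. Nothing is known here about the motif in the other targets. It runs from 250 bases before to 3 bases after the gene start on GRCm38.p6.
Hey2 (chr10:30842781-30843033, minus strand): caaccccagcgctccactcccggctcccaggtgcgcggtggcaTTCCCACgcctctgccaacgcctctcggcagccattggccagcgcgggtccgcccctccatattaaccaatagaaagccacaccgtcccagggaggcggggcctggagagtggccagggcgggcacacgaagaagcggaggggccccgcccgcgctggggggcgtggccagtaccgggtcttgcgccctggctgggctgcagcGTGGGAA
The motif occurred at 2 places, starting at position -207 in reverse orientation and at position -4 in forward orientation, counted from the gene start. At both places the base in front of the motif on its own strand was C, which gives the longer form CGTGGGAA. Of all 32851 promoter entries 84 (0.256%) held GTGGGAA at least 2 times and 4 (0.0122%) held CGTGGGAA at least 2 times. These 4 belonged to Hey2, Atp6v1g2, Ffar2 and 1700034I23Rik. The longer form was searched after the Hey2 sequence had been seen. Hey2 had a log2 ratio of 0.76, short of the 2-fold rule. Neither a match of letters nor an expression ratio measures binding, so nothing about RBPJ binding is read from the motif.

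Across the 10 genes, 2 (Notch2 and Hes1) passed the 2-fold rule as higher and 0 as lower. The same rule called 6.08% higher and 10.4% lower among the 13408 genes that averaged 1 FPKM or more. All 10 genes passed that minimum, and each had at least 2.96 FPKM in both libraries. The median log2 ratio of the 10 genes was 0.54, against -0.07 for all genes, whose quartiles were -0.52 and 0.38. The members lay above the upper quartile in 6 cases (Notch2, Notch4, Jag1, Hes1, Hey2 and Heyl), below the lower quartile in 1 (Notch1) and between them in 3 (Notch3, Jag2 and Hey1). In percentiles of all genes the ratio of Hes1 stood at 95.6, Notch2 at 94.2 and Notch1 at 16.1. With log2 ratios taken relative to stroma, neither Notch2 (0.50) nor Hes1 (0.61) passed the 2-fold rule, while Notch1 (-1.26) did as lower. On that scale 1.85% of all genes were higher and 26.7% lower. That centring lowered the median of all genes by 0.52, and setting both libraries to the same upper quartile moved it up by 0.21. Over all genes 815 were higher and 1396 lower, and with equal upper quartiles 1382 and 1091.

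**Figure D3:**
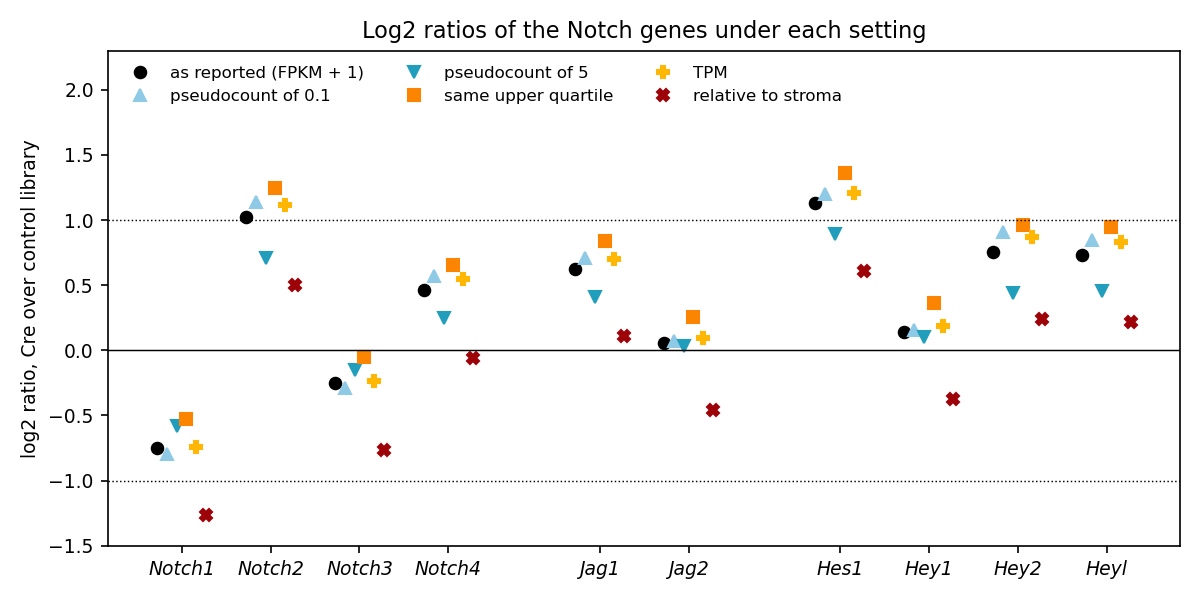
Log2 ratios (vertical axis, Cre over control library) of the 10 genes as reported and under 5 other settings, 1 symbol per setting, with dotted lines at the 2-fold rule. Notch1 and Notch3 lie below 0 and Notch2, Jag1, Hes1, Hey2 and Heyl above 0 in every setting shown, while Notch4, Jag2 and Hey1 lie below 0 relative to stroma.

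As levels, the members stood between the 30.5 and the 78.8 percentile of all genes. Hes1 was at the 78.8 percentile of all genes in the Cre library and at the 53.6 percentile in the control library. Notch2 was at the 64.5 percentile in the Cre library and at the 40.6 percentile in the control library, and Notch1 at 58.9 in the Cre library and 69.0 in the control library. Notch4 was the lowest member in both, at 38.7 in the Cre library and 30.5 in the control library. The transcripts ranged from 1468 bases for Hes1 to 10500 bases for Notch2 in GENCODE M21, so the genes past the 2-fold rule had the shortest and the longest transcript of the set. None of the 10 loci overlapped another row of the table.

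Markers of the cell types in which these genes are known to act gave a scale for their ratios. All 15 endothelial markers, led by Pecam1, Eng and Emcn, lay above equal expression in the Cre library before any centring, beside 45.96% of all genes. Their log2 ratios had a median of 0.41 and a range of 0.04 to 0.86. Notch4, the endothelial receptor, differed from that median by 0.05. It differed from the pacemaker, fibroblast and epicardial medians by 0.11, 0.14 and 0.16, so closeness was not particular to the endothelial list. Notch2 and Hes1 lay above all 15 of these markers, and Notch1 and Notch3 below all 15. The endothelial markers summed to 686 FPKM in the Cre library and 523 FPKM in the control library.

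The 11 mural cell markers other than Notch3, led by Acta2, Tagln and Des, had a median log2 ratio of 0.78 and ranged from 0.37 to 1.92. Heyl differed from this median by -0.05, Hey2 by -0.02 and Jag1 by -0.15, so closeness to it was not particular to Heyl. Notch3, which is used as a pericyte marker itself, lay 1.03 log2 units below the median and below all 11 markers. Jag2 and Hey1 were also below all 11, while Notch2 and Hes1 each lay above 8 of them. The heart muscle markers, led by Myl7, Actc1 and Tnni3, had a median of 1.33 over 12 genes. By the 2-fold rule 8 of them were higher, beside 6.08% of all genes. Hes1 and Notch2 each lay above 4 of these 12 markers and Hey2 above 2. Fibroblast markers, led by Dcn, Col3a1 and Dpt, had a median of 0.32, epicardial markers, led by Upk3b, Msln and Krt19, one of 0.30, and the 6 pacemaker markers that passed the minimum, led by Tbx18, Cacna1g and Cacna1d, one of 0.35.

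The median log2 ratio of the T cell markers was -6.30, and Notch1 lay 5.56 log2 units above it. Thymic epithelium markers, led by Prss16, Ccl25 and Krt8, had a median of -1.73 over 9 genes. Cell cycle markers, led by Pcna, Top2a and Mki67, had a median of -3.24, with all 15 lower, beside 10.4% of all genes. Notch1 and Notch3, which immature thymocytes express, lay on the same side as these lists, as did 7246 of all 13408 genes. The ratio of Notch3 stood only at the 39.0 percentile of all genes, and it was -0.05 with equal upper quartiles. The 18 T cell markers summed to 16.9 FPKM in the Cre library and to 3094 FPKM in the control library. Their part in the values of Notch1 and Notch3 was not tested.

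**Figure D4:**
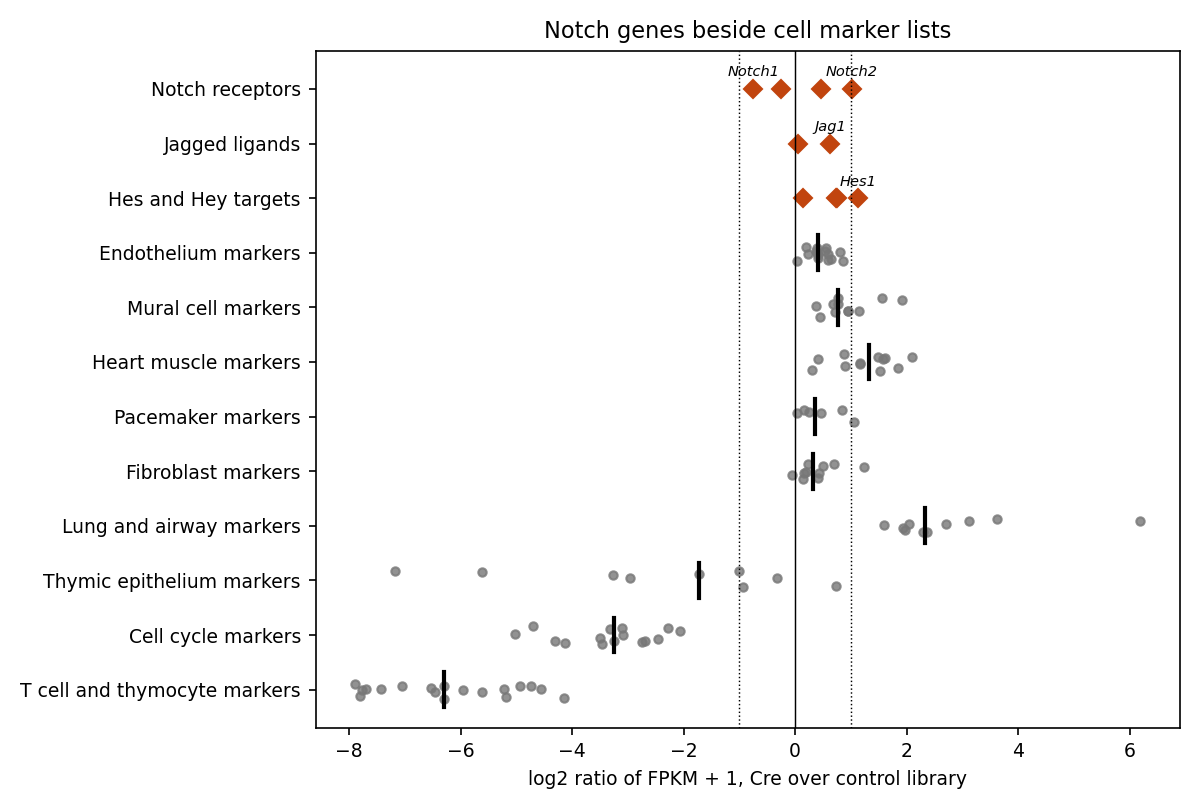
Log2 ratios of FPKM + 1, Cre over control library (horizontal axis), of the receptors, ligands and targets as diamonds and of cell marker lists as grey points with the median as a black bar; dotted lines mark the 2-fold rule. The Notch genes lie between -0.75 and 1.13, with Notch1 and Notch3 below all endothelial, mural and muscle markers and all 10 genes above the T cell median of -6.30.

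Other genes of the pathway were counted by role. Over 10 further lists, 86 genes passed the minimum, of which 2 were higher and 11 lower by the 2-fold rule, beside 6.08% and 10.4% of all genes. Of the 11 lower genes 7 were target genes of thymocytes. The median log2 ratio of the 86 genes was -0.01. Relative to stroma 24 of the 86 were lower and 0 higher, beside 26.7% and 1.85% of all genes. With equal upper quartiles 8 of the 86 were higher and 7 lower, beside 1382 and 1091 of all 13408 genes. Rbpj, the DNA-binding protein of the pathway, had 16.4 FPKM in the Cre library and 17.97 FPKM in the control library (log2 ratio -0.13). None of the 9 genes of its activator complex passed the rule, and the largest ratios there were those of the acetyltransferase gene Ep300 (-0.59), Snw1 (-0.54) and the coactivator Maml1 (-0.53). Among 15 corepressor genes Fhl1, a muscle LIM protein with an RBPJ-binding form, was higher, at 220 FPKM in the Cre library and 101 FPKM in the control library. Tle3, a Groucho corepressor that Hes proteins recruit, had 8.70 FPKM in the Cre library and 18.7 FPKM in the control library. Its log2 ratio of -1.02 just passed the rule as lower. L3mbtl3, which binds RBPJ and represses its targets, had 3.89 FPKM in the Cre library and 8.86 FPKM in the control library. Its log2 ratio of -1.01 also just passed as lower.

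The Delta ligands were weak, and none passed the rule. Dll4, the ligand of arterial endothelium and of thymic epithelium, had 3.34 FPKM in the Cre library and 3.02 FPKM in the control library. Dll1 had 2.98 FPKM in the Cre library and 2.23 FPKM in the control library, and Dlk2 had 1.42 FPKM in the Cre library and 0.992 FPKM in the control library. Jag1, at 8.20 FPKM in the Cre library and 4.96 FPKM in the control library, was thus the strongest measured ligand in both libraries. None of the 9 proteases that passed the minimum differed 2-fold, with log2 ratios of -0.69 for Adam17, 0.57 for Furin and 0.51 for Aph1b. Of the 6 sugar transferases, which tune how receptors respond to ligands, Mfng just passed the rule as lower, with a log2 ratio of -1.005. It had 3.86 FPKM in the Cre library and 8.76 FPKM in the control library. Gxylt1 and Rfng had ratios of -0.51 and -0.40. None of 14 genes of receptor and ligand trafficking passed the rule, and Neurl1b (-0.98), Neurl1a (0.92) and Numbl (0.62) had the largest ratios.

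Known targets of the pathway were counted by tissue. The lists do not separate genes that Notch raises from genes that it lowers, so a shared side is not read as pathway activity. Of 9 genes known as Notch targets or partners in thymocytes 7 were lower, beside 10.4% of all genes. The median log2 ratio of the 9 was -1.99. Tcf7 had 1.41 FPKM in the Cre library and 384 FPKM in the control library. Bcl11b had 0.221 FPKM in the Cre library and 45.9 FPKM in the control library. Ptcra, a chain of the early T cell receptor, had 0.0116 FPKM in the Cre library and 9.88 FPKM in the control library. Gata3, Il2ra, Tcf12 and Myc were the others, with log2 ratios of -2.91, -1.99, -1.69 and -1.17. The T cell markers given above lay on the same side, and their part was not tested. Nrarp and Dtx1, the feedback regulators in this list, had log2 ratios of 0.06 and -0.36.

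The 12 vascular targets had a median log2 ratio of 0.46, which was -0.06 relative to stroma. Kdr, Pdgfrb and Acta2 of this list are also among the stroma markers, so the centred value is not independent of the list. Before any centring 11 of the 12 lay above equal expression, beside 45.96% of all genes. The exception was Cxcr4, a chemokine receptor that thymocytes also express, at 3.21 FPKM in the Cre library and 87.3 FPKM in the control library. Pdgfrb and Gja4, of mural cells and arterial endothelium, had log2 ratios of 0.94 and 0.84, short of the rule. Of 8 heart targets and partners that passed the minimum, Tbx2, a repressor at the atrioventricular boundary, was higher, at 3.99 FPKM in the Cre library and 1.49 FPKM in the control library (log2 ratio 1.001). Gata4 and Tbx5 had ratios of 0.95 each, and the median was 0.63, or 0.11 relative to stroma. Among relatives of Hes1, Hes6 had 20.4 FPKM in the Cre library and 39.4 FPKM in the control library (log2 ratio -0.92). Bhlhe40 had 24.8 FPKM in the Cre library and 13.4 FPKM in the control library (0.85), and Bhlhe41 had a ratio of 0.07. Hes5, the other classical Hes target, was at 0.0234 FPKM in the Cre library and 0.171 FPKM in the control library, below the minimum.

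**Figure D5:**
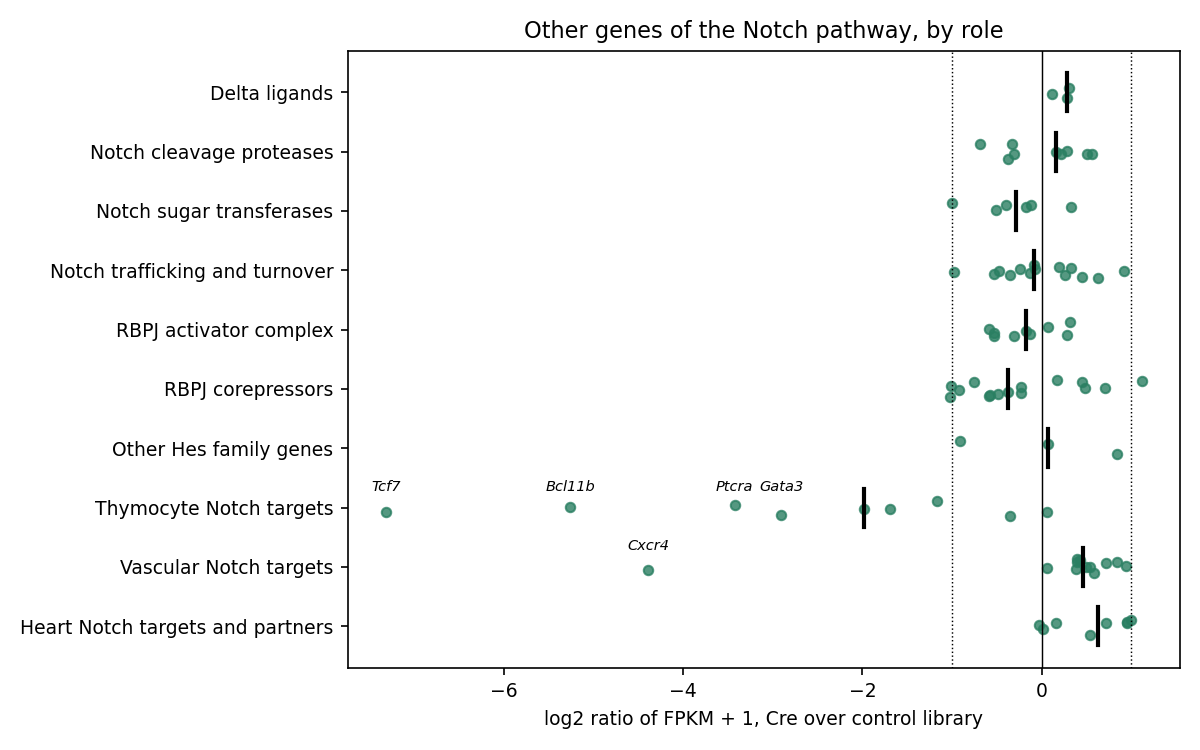
Log2 ratios of FPKM + 1, Cre over control library (horizontal axis), of further Notch pathway genes that averaged 1 FPKM or more, 1 row per role, with the list median as a black bar and dotted lines at the 2-fold rule. Most points lie within the dotted lines, and the far points are Tcf7, Bcl11b, Ptcra and Gata3 among thymocyte targets and Cxcr4 among vascular targets.

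By the authors' deposited table, none of the 10 genes was significant, with p-values from 0.150 for Notch2 to 0.940 for Jag2 and a q-value of 0.999 for each. That table called 88 of 15965 genes lower (0.551%) and 2 higher (0.0125%), a comparison of these 2 libraries and not of the genotypes. The authors' deposited table called 3 of the 90 further pathway genes that have a value, Tcf7, Bcl11b and Cxcr4, all lower in the Cre library. Ptcra, at 0.0116 FPKM in the Cre library and 9.88 FPKM in the control library, was not called there, so a missing call is not read as equal expression.

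Genes whose levels in the libraries were nearest to those of the members at the ends of the range were taken by Euclidean distance on log2(FPKM + 1) over the 2 libraries. For Hes1 these were Rbfox2, Fndc3b and Cyb561, at distances of 0.06, 0.07 and 0.07, and 29 of 12272 named genes lay within 0.2. For Notch1 they were Ubxn7, Phkg2 and Trim25, each at a distance of 0.01, and 152 genes lay within 0.2. With 2 points per gene, many genes share such a pattern.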

How the data were processed

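Poly-A RNA was sequenced from sinoatrial node tissue, with 1 library per genotype on day 6, and samples were grouped by their titles and genotypes in the labels. Per the submitters' processing notes, the authors used TopHat, Bowtie and Cufflinks on mm9; the scaling of libraries, annotation, strand use and versions are not stated there. The deposited values were taken as FPKM, as in Cufflinks tables with this column layout, per the file headers. Each row also holds the authors' deposited log2 fold changes, test statistics (a score), p-values and q-values, and the log2 fold changes were checked to match the FPKM within 1.38e-05. If the libraries were scaled by total fragments, abundant transcripts of other cells would lower every other FPKM value of the same library.

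Of 15967 rows, 2 with a comparison marked as not completed and 32 small-RNA genes were left out, and 21 symbols that had become dates were restored from their RefSeq accession. Log2 ratios used a pseudocount of 1, and lists were counted over genes that averaged 1 FPKM or more, in Python 3.11.15 with pandas 2.3.3. The steps were tested on simulated data. No test was run. Alternatives were pseudocounts of 0.1 and 5, equal upper quartiles, TPM, centring on 36 stroma markers, no minimum or one of 5 FPKM, and keeping the rows left out as not completed. The members and lists were chosen with earlier results of these data known. By rule, all members were named, with every 2-fold gene and the up to 3 largest ratios of each pathway list, the 3 strongest genes of each marker list, and the 3 genes nearest to the members with the highest and lowest ratio; Hcn4, Xist, Ddx3y, Hes5, Nrarp and Dtx1 were added after their values were seen.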

Additional observations from a re-analysis of the deposited data

How the results depend on the processing

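With a pseudocount of 5 the log2 ratio of Notch2 was 0.71 and that of Hes1 was 0.90, so that 0 receptors, 0 targets and 0 of the 10 genes were at least 2-fold higher. Relative to stroma Notch2 was at 0.50, Hes1 at 0.61 and Notch1 at -1.26, which gives 0 higher and 1 lower among the receptors and among all 10 genes, and 0 higher targets. The other settings left the 2-fold calls of the 10 genes as they were. A minimum of 5 FPKM left Notch4, Jag2 and Hey2 uncounted, and the receptor median went from 0.11 to -0.25. Over the 10 genes and these settings log2 ratios ran from -1.26 to -0.53 for Notch1, from 0.50 to 1.24 for Notch2 and from 0.61 to 1.36 for Hes1.

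For the further pathway genes, 2 higher and 11 lower became 6 higher with a pseudocount of 0.1 or in TPM. They became 1 higher and 6 lower with a pseudocount of 5, and 8 higher and 7 lower with equal upper quartiles. Relative to stroma the counts were 0 higher and 24 lower, and with a minimum of 5 FPKM 1 higher and 8 lower. For all genes, 815 higher and 1396 lower became 1262 higher with a pseudocount of 0.1, and 238 and 804 with a pseudocount of 5. With equal upper quartiles they became 1382 higher and 1091 lower, and relative to stroma 248 and 3580. With a minimum of 5 FPKM they became 449 higher and 1062 lower. That minimum leaves fewer genes to count, so its counts are over a smaller set. Why the settings differ was not tested beyond their construction. No paired analysis was possible because each genotype had 1 library. The unknown read depth and the lack of replicates limit every value.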
